A study of Mus musculus with 6 samples.

Results

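The Bmp and activin pathway was followed in infarcted mouse hearts through 10 genes, chosen by gene symbol: the ligands Bmp2, Bmp4, Bmp6, Bmp7 and Bmp10, the activin subunit gene Inhba, the receptors Bmpr1a and Bmpr2, the antagonist Grem1 and the secreted follistatin-like protein Fstl1. All 10 symbols were found among the 26012 genes of the expression table. Poly(A) RNA was sequenced from ventricles of male C57BL/6 mice, aged 8 weeks, whose left anterior descending coronary artery had been tied to cause myocardial infarction (MI). Every heart received 10 μg of synthetic miRNA mimic by injection into the heart, either control mimic (3 hearts) or a mixture of miR-19a and miR-19b mimics (3 hearts), and was collected 4 days after MI. All 6 hearts were infarcted and injected, so the comparison is between mimics within infarcted hearts, and hearts without MI were not analysed here. Each library held the RNA of a whole piece of ventricle, and in such tissue fewer cells of a type and less RNA per cell cannot be told apart.

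Bmps and activins are secreted dimers of the TGF-beta superfamily. They bind pairs of type I and type II serine/threonine kinase receptors: Bmps act mainly through Smad1, Smad5 and Smad9 and induce Id genes, and activins act through Smad2 and Smad3. Secreted antagonists such as gremlin and follistatin hold the ligands away from their receptors. In the heart, Bmps are required for valve and chamber formation, and activin A and follistatin-like 1 are released after injury.

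miR-19a and miR-19b belong to the miR-17-92 cluster. Their mature sequences are shown because the bases in capitals, the seed (bases 2 to 8 from the 5′ end), are what pairs with a target, and because the 6 miRNAs of the cluster fall into 4 groups by seed. The sequences are those of RefSeq for mouse build GRCm38.p6, where miR-19a lies at chr14:115044048-115044070 and miR-19b at chr14:115044358-115044380, both on the plus strand.
mmu-miR-19a-3p: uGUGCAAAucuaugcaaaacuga
mmu-miR-19b-3p: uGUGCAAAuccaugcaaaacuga
mmu-miR-17-5p: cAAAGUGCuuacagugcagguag
mmu-miR-20a-5p: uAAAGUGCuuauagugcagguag
mmu-miR-18a-5p: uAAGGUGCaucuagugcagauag
mmu-miR-92a-3p: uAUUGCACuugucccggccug
miR-19a and miR-19b share their seed and differ by U11C, counted from the 5′ end with the base of miR-19a first. miR-17 and miR-20a share a second seed, and miR-18a and miR-92a each have their own.

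The 3′ UTR of each gene, taken from the GENCODE M21 annotation of GRCm38 for 1 transcript per gene, was searched on its own strand for the complement of the miR-19 seed. A match was TTTGCAC, its longer form TTTGCACA, or TTGCACA, which pairs with bases 2 to 7 and has an A opposite base 1. Of the 10 genes, 5 held 1 match each, shown here with 8 bases on either side and the match in capitals, in the direction of the transcript.
Bmpr2, chr1:59870683-59870689, plus strand: ttttaagtTTTGCACttttgttt
Inhba, chr13:16028227-16028233, plus strand: gtttactaTTTGCACtacgatgg
Grem1, chr2:113747643-113747650, minus strand: taaatgaaTTTGCACAagcccagc
Bmpr1a, chr14:34413947-34413953, minus strand: tgtaaaggTTGCACAggaaggta
Bmp2, chr2:133562191-133562197, plus strand: caaagtgcTTGCACActtgctgt
Only the match in Grem1 was of the 8-base form. Bmp4, Bmp6, Bmp7, Bmp10 and Fstl1 had none of these letters in the UTR searched. Across the 15866 genes tested that have an annotated 3′ UTR, 3070 (19.3%) held a miR-19 match and 922 (5.81%) held the 8-base form.

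The Bmpr2 3′ UTR is long, at 8529 bases, and held matches to all 4 seeds of the cluster. The miR-19 match shares 4 bases with a miR-17/miR-20a match (GCACTTT), and a miR-92a match of 8 bases (GTGCAATA) lies downstream of both.
Bmpr2, miR-17/miR-20a, chr1:59870686-59870692: taagttttGCACTTTtgtttagt
Bmpr2, miR-92a, chr1:59870980-59870987: atttgaatGTGCAATAgtctatag
The same 3 forms were searched for each seed: GCACTTT, GCACTTTA and CACTTTA for miR-17/miR-20a, GCACCTT, GCACCTTA and CACCTTA for miR-18a, and GTGCAAT, GTGCAATA and TGCAATA for miR-92a. Such letters are common in long UTRs: of the 689 tested genes with a 3′ UTR of at least 5000 bases, 57.5% held a miR-19 match, 63.6% a miR-17/miR-20a match, 48.0% a miR-18a match and 43.7% a miR-92a match. The 8-base miR-92a form was in 9.72% of these genes and in 2.65% of all tested genes with an annotated 3′ UTR. A match is a description of the letters, not a site of action.

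Values are the deposited normalized counts, the reads on each gene after division by the size factor of that library. The 6 libraries held 19398196 to 23645308 reads on genes, and 3 reads, the limit that a count of 0 allows, correspond to 2.59 to 3.32 normalized counts. The third heart with miR-19a/19b mimic stood apart from the others. Its summed cardiomyocyte markers were 52.7% of the control mimic mean, against 156% and 140% in the first and second mimic hearts. Its summed fibroblast markers, mostly Col1a1 and Col1a2, were 136% of that mean. The first mimic heart held 2367 normalized counts of the skeletal muscle markers, where the other 5 hearts held 32.7 to 70.9. The ventricular label was set against 5 atrial markers, none of which was at 0 in all 6 hearts. Sln was at 0 in all 3 control hearts and at 96.8, 0 and 0.864 normalized counts in the mimic hearts. Myl4 was at 306 in the first mimic heart and at 50.4 to 86.9 in the other 5, so the first mimic heart stood apart in both. In that heart Myl7, at 3.23, was the lowest of the 6 hearts. Nppa was below every control in all 3 mimic hearts, at 1317, 1178 and 702 against 1447 to 2555. Its low value was thus not particular to the first mimic heart. Dkk3 was at 1323 in the first mimic heart, inside the control range. The 5 markers thus did not move together, and the source of Sln and Myl4 there was not tested. Cardiomyocyte markers were present in every heart, at a sum of 281228 to 834913.

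Of the 10 genes, 8 had a mean of at least 1 normalized count over the 6 hearts and entered the test, which was limma on log2(normalized count + 1) over 21126 genes with Benjamini-Hochberg adjustment. The question was whether hearts given miR-19a/19b mimic differed from hearts given control mimic. No gene of the pathway passed an adjusted p of 0.05, and none of all genes tested did (0%). On recovered reads, edgeR's quasi-likelihood test called 0 genes and DESeq2 called 29, none of them among the 10. By sign, 5 of the 8 genes were lower and 3 were higher with miR-19a/19b mimic, with a median log2 fold change of -0.10 against 0.00 over all genes. At an unadjusted p under 0.05, 1 of the 8 was lower and none was higher. That gene was Inhba, and over all genes 2.63% were lower and 1.39% were higher at this unadjusted threshold. Inhba was also the only one of the 8 whose groups did not overlap, where 5.3% of all genes tested had every mimic heart below every control heart and 3.9% had every mimic heart above.

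**Figure D1:**
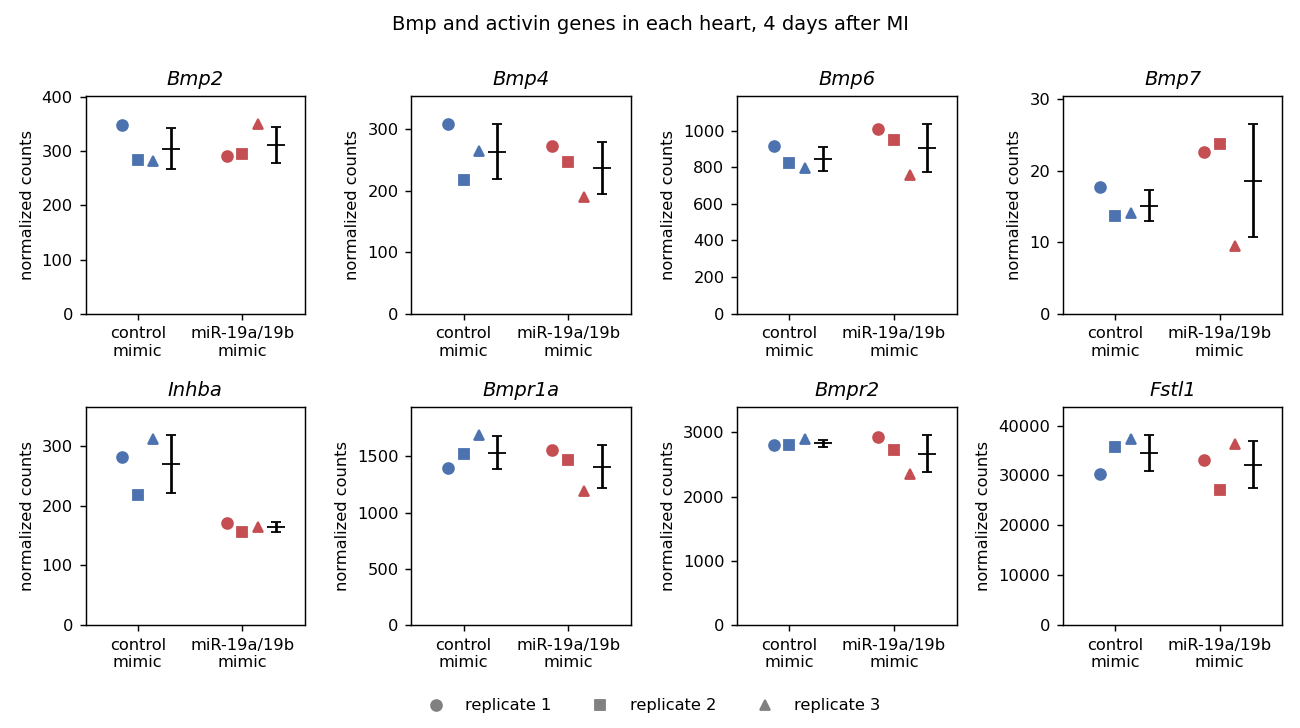
Normalized counts (y axes, linear from 0) of the 8 tested Bmp and activin genes in each of 3 control mimic hearts (blue) and 3 miR-19a/19b mimic hearts (red), with the mean ± SD of each group in black. The groups overlap for every gene except Inhba, for which the mimic hearts lie between 156 and 172 and the control hearts between 218 and 312.

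Inhba (ENSMUSG00000041324, chr13:16011851-16027211, plus strand) encodes the beta A subunit, which forms activin A as a homodimer. Its values were 282, 218 and 312 normalized counts with control mimic and 172, 156 and 164 with miR-19a/19b mimic. Every mimic heart was below every control heart, and the 3 mimic hearts lay much closer together than the 3 controls. The group means were 270.5 ± 48.2 and 164 ± 8.24 (SD, n = 3 each), a ratio of the mimic mean to the control mean of 0.606. The log2 fold change was -0.70 (SE 0.16, 95% interval -1.06 to -0.35), with an unadjusted limma p of 0.00156 and an adjusted p of 0.791. By unadjusted p, Inhba ranked 39 among the 21126 genes. For a single gene, an exact permutation test of 3 hearts against 3 cannot go below p = 0.1.

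The size of the Inhba difference changed little with the tool. On the recovered reads, 151 to 334 per heart, DESeq2 gave a log2 fold change of -0.72 with an adjusted p of 0.0826, and edgeR's quasi-likelihood test gave -0.72 with an adjusted p of 0.833. In the 6 fits that each omitted 1 heart, the log2 fold change lay between -0.85 and -0.59. The limma adjusted p lay below 0.05 in 1 of these 6 fits, at 0.0489 without the third mimic heart, and the unadjusted p was below 0.05 in all 6, at most 0.00943. In that fit 547 genes of 21202 (2.58%) were called, and 0.774% of those tested were called lower. The miR-19 match in the Inhba 3′ UTR lies past the end of the deposited gene, which held 82 of the 4492 bases of that UTR, so reads on most of the UTR were not part of these counts.

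Fibroblasts and macrophages are among the cells known to make activin A. Of 8 fibroblast markers, 4 had a lower and 4 a higher sign with the mimic, with a median log2 fold change of 0.02 and sums of 444424 to 542534 normalized counts with control mimic and 377136 to 648919 with miR-19a/19b mimic. The 6 myofibroblast markers all had a lower sign with the mimic, with a median log2 fold change of -0.23 and none with groups apart, and their sum was 194233 to 262978 normalized counts with control mimic and 151144 to 211616 with miR-19a/19b mimic. Of 8 macrophage and monocyte markers, 6 had a lower sign, and Cd68 and Mrc1 had a higher sign. Every mimic heart was below every control heart for 2, Ly6c2 and Ccr2, next to 5.3% of all genes tested. The sums, mostly Lyz2, were 57429 to 66166 normalized counts with control mimic and 45691 to 72221 with miR-19a/19b mimic. None of the markers on these lists was at 0 in all hearts. The part of these cell types in the Inhba difference was not tested.

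**Figure D2:**
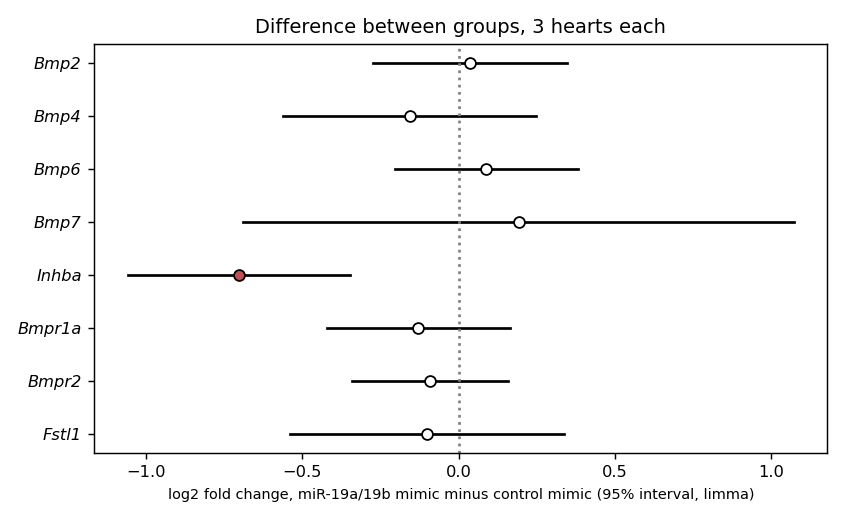
Log2 fold change of each tested gene (x axis, miR-19a/19b mimic minus control mimic) with its 95% interval from limma, 3 hearts per group; the filled red point marks the gene whose groups did not overlap. Inhba, at -0.70, is the only gene whose interval does not include 0, and the interval of Bmp7 is the widest, from -0.69 to 1.07.

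Among the Bmp ligands, none of the 4 that could be tested differed beyond the spread between hearts. Bmp2 (ENSMUSG00000027358, chr2:133552159-133562885, plus strand), a ligand with a role in the atrioventricular canal and valves, was at 348, 284 and 281 normalized counts with control mimic and at 290, 295 and 350 with miR-19a/19b mimic. The groups covered almost the same range, with a log2 fold change of 0.04 (95% interval -0.27 to 0.35, adjusted p = 0.9996). Bmp2 carries a miR-19 match of the TTGCACA form in its 3′ UTR.

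Bmp4 (ENSMUSG00000021835, chr14:46383520-46390669, minus strand), a close relative of Bmp2, was at 307, 218 and 264 normalized counts in the control hearts and at 272, 246 and 190 in the mimic hearts. The third mimic heart was the lowest of the 6, and the other mimic hearts lay inside the control range. This gave a log2 fold change of -0.16 (95% interval -0.56 to 0.25, adjusted p = 0.9996), which was -0.0085 without the third mimic heart. The exons of Bmp4 share 89 bases, 3.96% of its length, with Gm15217 on the other strand.

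Bmp6 (ENSMUSG00000039004, chr13:38345716-38499728, plus strand), known for inducing hepcidin in the control of iron, was the most abundant Bmp ligand of the set per length. It was at 917, 821 and 797 normalized counts with control mimic and at 1006, 950 and 755 with miR-19a/19b mimic. The first and second mimic hearts were above all controls and the third was below all controls. Over all hearts the log2 fold change was 0.09 (95% interval -0.21 to 0.38, adjusted p = 0.9996), and it was 0.21 without the third mimic heart (unadjusted limma p of 0.0554) and 0.0052 without the first. In GENCODE M21, Bmp6 shares 224 of its 3900 exonic bases (5.74%) with Txndc5 on the other strand. The deposited gene is shorter, at 2410 bases, and held 660 of the 1234 bases of the 3′ UTR. Whether the shared bases lie inside it was not determined.

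Bmp7 (ENSMUSG00000008999, chr2:172868012-172940321, minus strand), which is known to oppose TGF-beta in fibrosis, was read 11 to 23 times per heart. Its values were 17.7, 13.7 and 14.0 normalized counts with control mimic and 22.6, 23.7 and 9.51 with miR-19a/19b mimic. As for Bmp6, the first and second mimic hearts were above the controls and the third was below them. Its log2 fold change was 0.19 (95% interval -0.69 to 1.07, adjusted p = 0.9996), an interval that covers 0.620 to 2.10 times the control level.

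Bmp10 (ENSMUSG00000030046, chr6:87428994-87437677, plus strand), a ligand made in trabeculae of the embryo and in the adult atria, was hardly read in these ventricles. It had 1 read in the third control heart (0.934 normalized counts), 1 read in the first mimic heart (1.08) and 0 reads in the other 4 hearts. All values lay under the limit of 3 reads, and no fold change is given.

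The receptors were read deeply and differed little between the groups. Bmpr2 (ENSMUSG00000067336, chr1:59763400-59879014, plus strand), the type II receptor that binds Bmps, was at 2804, 2797 and 2892 normalized counts with control mimic and at 2923, 2722 and 2356 with miR-19a/19b mimic. The controls lay within a narrow band, and the mimic hearts lay above, below and far below it. The means were 2831 ± 53.2 and 2667 ± 287 (SD, n = 3 each), and the log2 fold change was -0.09 (95% interval -0.34 to 0.16, adjusted p = 0.9996). The interval covers differences from 0.790 to 1.11 times the control level.

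Bmpr1a (ENSMUSG00000021796, chr14:34410734-34503341, minus strand), a type I receptor for Bmp2 and Bmp4 that the developing heart requires, was at 1396, 1518 and 1688 normalized counts in the control hearts and at 1559, 1471 and 1193 in the mimic hearts. The third mimic heart was the lowest, as for Bmpr2, and the others lay inside the control range. The log2 fold change was -0.13 (95% interval -0.42 to 0.16, adjusted p = 0.9996). Both receptors carry a miR-19 match. Without the third mimic heart the log2 fold change was -0.014 for Bmpr1a and -0.0051 for Bmpr2, both close to 0, and with any other heart left out it lay between -0.21 and -0.06 for Bmpr1a and between -0.16 and -0.08 for Bmpr2. Of the Bmpr1a exons, 290 bases (4.57%) are shared with Gm17110 on the other strand. Whether the counting used strand is not given in the sources used here. Reads of the shared stretches of Bmpr1a and Bmp4 therefore cannot be assigned to 1 gene.

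Of the secreted proteins that bind or accompany Bmps, 1 was among the abundant transcripts and 1 was near 0. Fstl1 (ENSMUSG00000022816, chr16:37776873-37836514, plus strand), a secreted glycoprotein of the heart and its stroma, was at 30351, 35618 and 37314 normalized counts with control mimic and at 33010, 27163 and 36389 with miR-19a/19b mimic. The second mimic heart was below all controls and the other mimic hearts lay among them. The means were 34428 ± 3631 and 32187 ± 4668 (SD, n = 3 each), with a log2 fold change of -0.10 (95% interval -0.54 to 0.34, adjusted p = 0.9996). Fstl1 has no miR-19 match in the UTR searched.

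Grem1 (ENSMUSG00000074934, chr2:113746164-113758646, minus strand) encodes gremlin 1, which binds Bmp2, Bmp4 and Bmp7. It was read 3 times in the third control heart (2.80 normalized counts) and 0 times in the other 5 hearts. The 8-base miR-19 match in its 3′ UTR therefore stands in a transcript that these libraries hardly sampled, and no fold change is given.

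The 4 tested genes with a miR-19 match, Inhba, Bmpr1a, Bmpr2 and Bmp2, had a median log2 fold change of -0.11 and a lower sign in 3 of 4. The 4 without, Bmp4, Bmp6, Bmp7 and Fstl1, had a median of -0.01 and a lower sign in 2 of 4. Among all genes tested, those with a match had a median of -0.03 and a lower sign in 57.6%, and those without had a median of 0.01 and a lower sign in 48.2%. Counts over 4 genes do not set these genes apart from the rest.

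To compare levels between genes, each value was divided by gene length, giving normalized counts per kb over all 6 hearts. Fstl1 was highest, at 5528 to 7593 per kb, and Bmp6 followed at 313 to 417. Bmpr1a was at 188 to 266 per kb and Bmpr2 at 131 to 163. Down to Bmpr2 no 2 neighbours in this order overlapped. Bmp4 (85.5 to 138 per kb), Inhba (78.6 to 158 per kb) and Bmp2 (79.1 to 98.5 per kb) overlapped one another, and the highest Bmp4 value was above the lowest Bmpr2 value. Bmp7 was far lower, at 2.37 to 5.90 per kb. In the control hearts the mean level of Inhba was 137 per kb and that of Bmp4 was 118 per kb, while in the mimic hearts the order was the other way, at 82.8 and 106 per kb.

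**Figure D3:**
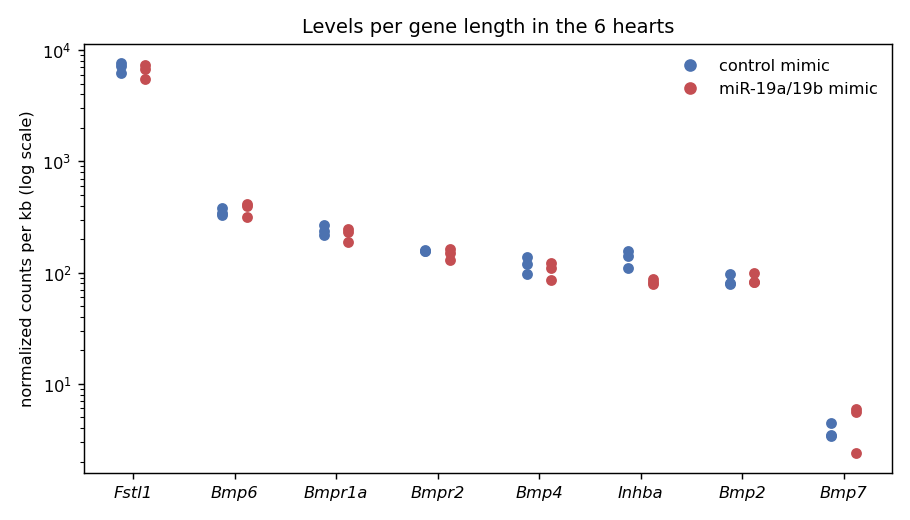
Normalized counts per kb of gene length (y axis, log scale) for the 8 tested genes, ordered by their mean over 6 hearts, with control mimic hearts in blue and miR-19a/19b mimic hearts in red. Fstl1 lies between 5528 and 7593 per kb and Bmp7 between 2.37 and 5.90, and Inhba is the only gene whose blue and red points do not overlap.

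The third mimic heart was the lowest of all 6 hearts for 5 of the 8 genes: Bmp7 at 62.9% of the control mean, Bmp4 at 72.3%, Bmpr1a at 77.8%, Bmpr2 at 83.2% and Bmp6 at 89.3%. It was the highest for Bmp2, at 115%. For Inhba it lay between the other mimic hearts. The share of all genes tested that were lowest in this heart was not counted, so these genes are not set apart by it. The heart with these low values also had the lowest cardiomyocyte sum and the highest fibroblast sum, which is mostly Col1a1 and Col1a2. Lum and Pdgfra were highest there too. Dcn was lowest there, at 10537 normalized counts, and Gsn, Dpt and Tcf21 lay between the other hearts. The part of tissue composition in these values was not tested.

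**Figure D4:**
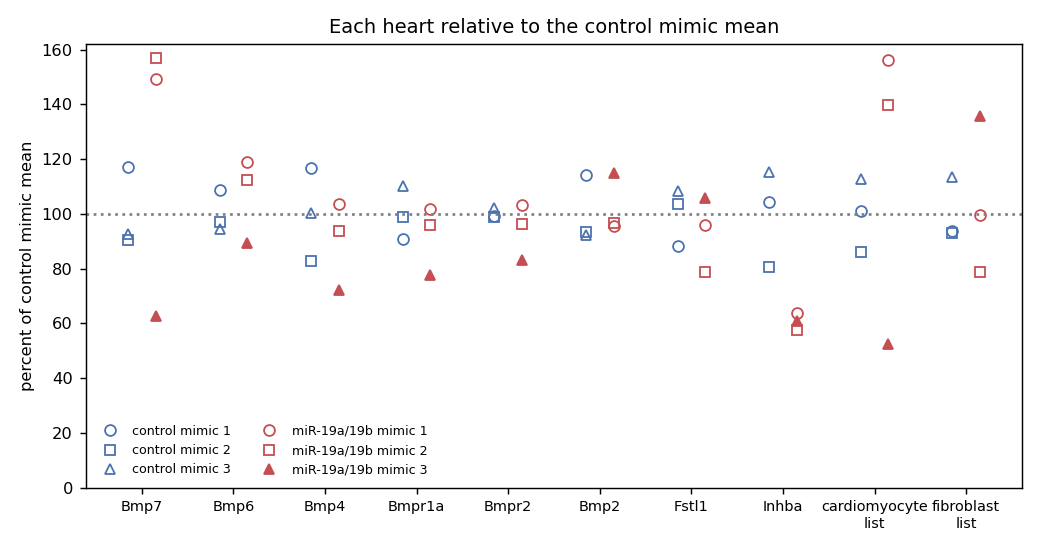
Each heart as a percent of the control mimic mean (y axis) for 8 Bmp and activin genes and for the summed cardiomyocyte and fibroblast marker lists, with control mimic in blue, miR-19a/19b mimic in red and the third mimic heart as filled triangles. The third mimic heart lies lowest for Bmp7, Bmp6, Bmp4, Bmpr1a, Bmpr2 and the cardiomyocyte list (52.7%), and within the mimic group for Inhba.

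The genes whose pattern over the 6 hearts was most like that of Inhba were Npat (Pearson's r = 0.98), Shoc2 (r = 0.98) and Camk2g (r = 0.97), among 12737 genes with a mean of at least 50 normalized counts. For Bmpr1a they were Erc1 (r = 0.99), Gm14325 (r = 0.98) and Gpr155 (r = 0.98), and for Fstl1 they were Mapk14 (r = 0.996), Syne3 (r = 0.99) and Trim65 (r = 0.99). These correlations rest on 6 hearts and are a description. Of the genes compared, 61 (0.479%) had r above 0.9 with Inhba, 180 (1.41%) with Bmpr1a and 156 (1.22%) with Fstl1. The 3 genes most like Inhba varied less than it did, with log2 fold changes between -0.22 and -0.09. Erc1, Gm14325 and Gpr155 had their lowest value in the third mimic heart, as Bmpr1a did.

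Beyond the 10 genes, 88 others of the pathway were listed by role, of which 83 were in the table and 77 were tested. None passed an adjusted p of 0.05. At an unadjusted p under 0.05, 4 were lower and 1 was higher, next to 2.63% and 1.39% of all genes tested. Every mimic heart was below the controls for 6 genes and above them for 5, next to 5.3% and 3.9% of all genes tested. The median log2 fold change was 0.01, next to 0.00 over all genes tested. By role, it was 0.10 over 19 other ligands, 0.02 over 15 receptors and co-receptors, 0.01 over 22 antagonists and extracellular modulators, -0.09 over 12 Smads and their regulators, and 0.02 over 9 target genes.

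The activin branch held Fst, the gene of follistatin, which binds activin A tightly. Fst was at 112, 112 and 126 normalized counts with control mimic and at 95.8, 69.1 and 97.7 with miR-19a/19b mimic, and the groups did not overlap. Its log2 fold change was -0.43 (SE 0.18, unadjusted limma p of 0.0457, adjusted p = 0.9996), and it kept an unadjusted p under 0.05 in 2 of 6 fits with 1 heart left out. Fstl3 encodes a relative of follistatin that also binds activin. The ratio of Inhba to Fstl3 per kb, chosen after its values were seen, was 0.478, 0.519 and 0.519 with control mimic and 0.370, 0.343 and 0.345 with miR-19a/19b mimic. Inhba to Fst, chosen likewise, gave overlapping ratios of 2.73 ± 0.383 and 2.26 ± 0.357 (SD, n = 3 each). Inhbb, the gene of the beta B subunit, was at 1430 ± 262 and 1456 ± 371 normalized counts (SD, n = 3 each), with a log2 fold change of 0.01.

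Gdf6 had the lowest unadjusted p of the other ligands. It encodes a Bmp-type growth factor of joints and the skeleton, and was at 558, 527 and 539 normalized counts with control mimic and at 408, 337 and 408 with miR-19a/19b mimic. Every mimic heart was below every control, and the log2 fold change was -0.50 (SE 0.11, unadjusted limma p of 0.00191, adjusted p = 0.806). The unadjusted p stayed under 0.05 in 6 of 6 fits with 1 heart left out, and the adjusted p was 0.0346 without the third mimic heart. Gdf15, a stress cytokine, was at 1379 ± 213 and 1046 ± 189 normalized counts (SD, n = 3 each) with overlapping groups and an unadjusted limma p of 0.0375, which stayed under 0.05 in 3 of 6 fits with 1 heart left out.

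Bambi, a pseudoreceptor that lacks a kinase domain and dampens Bmp, activin and TGF-beta signals, was at 376, 444 and 378 normalized counts with control mimic and at 298, 345 and 280 with miR-19a/19b mimic. The groups did not overlap, and the log2 fold change was -0.38 (SE 0.13, unadjusted limma p of 0.0170, adjusted p = 0.9996). The unadjusted p stayed under 0.05 in 5 of 6 fits with 1 heart left out. The 3′ UTR of Bambi holds 1 miR-19 match, of the 8-base form. Of the 7 tested genes on these lists with that form, 6 had a lower sign, with a median log2 fold change of -0.13. The 922 genes with it among all genes tested had a median of -0.02 and a lower sign in 56.9%. Apart from Bambi, none of the 7 had an unadjusted limma p under 0.05. Counts over 7 genes do not set them apart from the rest. With any form of the match, 10 of 21 genes on these lists (47.6%) had a lower sign, with a median of 0.01, and without a match 27 of 55 (49.1%) did, with a median of 0.00. The abundant co-receptors Eng and Hfe2 had log2 fold changes of -0.08 and 0.02, and Hfe2 ranged from 765 normalized counts in the third mimic heart to 2230 in the first.

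The processing enzymes Bmp1 and Furin, which cleave chordin and Bmp precursors, had log2 fold changes of 0.12 and 0.14. Smad4, the common partner of receptor-activated Smads, was at 1563 ± 150 and 1403 ± 39.1 normalized counts (SD, n = 3 each), a log2 fold change of -0.15, and Ski, a repressor of Smads, had one of 0.07. All of these missed an unadjusted p of 0.05 and had overlapping groups.

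None of the 9 tested target genes of Bmp signaling passed the adjusted threshold, and 2 of them, Hey1 and Msx1, had every mimic heart above the controls, next to 3.9% of all genes tested. Id1 was at 685 ± 119 and 720 ± 89.5 normalized counts and Id3 at 3570 ± 579 and 3538 ± 715 (SD, n = 3 each), and the groups overlapped for both. Their log2 fold changes were 0.08 (95% interval -0.26 to 0.42) and -0.02 (95% interval -0.40 to 0.36). Hey1, also a target of Notch, was at 237, 223 and 242 normalized counts with control mimic and at 256, 298 and 322 with miR-19a/19b mimic. The Hey1 groups did not overlap, with a log2 fold change of 0.31 (SE 0.13, unadjusted limma p of 0.0373, adjusted p = 0.9996), and its unadjusted p stayed under 0.05 in 1 of 6 fits with 1 heart left out. Msx1 and Id4, homeobox and Id family targets, are named after their values were seen. Msx1 was at 118 ± 7.95 and 131 ± 4.73 normalized counts (SD, n = 3 each), a log2 fold change of 0.16 (95% interval -0.16 to 0.47). Id4 was at 73.9 ± 14.7 and 106 ± 27.2 normalized counts (SD, n = 3 each) with overlapping groups, and its log2 fold change of 0.50 (95% interval -0.02 to 1.02, unadjusted limma p of 0.0578) was the highest of the 9.

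**Figure D5:**
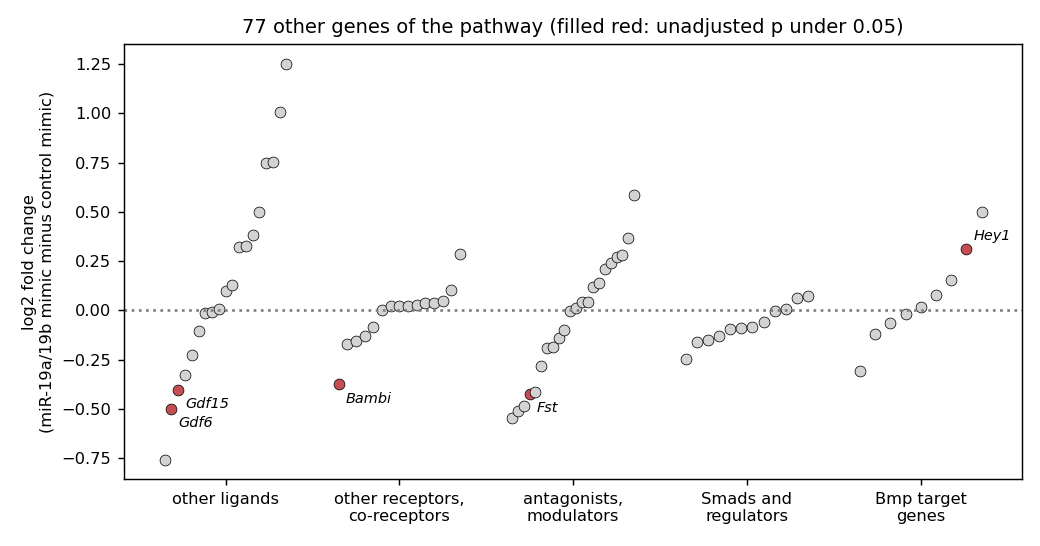
Log2 fold change (y axis, miR-19a/19b mimic minus control mimic, limma) of 77 other tested genes of the pathway, grouped by role and ordered within each group; red points have an unadjusted p under 0.05. Gdf6, Gdf15, Bambi and Fst lie below 0 and Hey1 above it, and none of the 77 passed the adjusted threshold.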

How the data were processed

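The authors aligned reads with STAR and counted them per gene with HTSeq (versions 2.5.1b and 0.6.0 in the submitters' processing notes). Those notes also list DESeq2 1.10.1 and mm9, while the study's methods name edgeR for differential expression. The signal the authors deposited is a normalized count, each gene's reads over the size factor of that library (0.905 to 1.16). Dividing by the value of 1 read gave whole reads for 100% of values, within 0.01 of a read. Also deposited are the authors' own fold changes and p-values, which were not used. Although the notes list mm9, 99.9% of the 25884 gene IDs found in GENCODE M21 (GRCm38) lay on the same chromosome and 82.7% began and ended at the same base. All coordinates printed are GRCm38.

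Groups and replicate numbers came from the labels. The values being normalized, limma 3.58.1 (R 4.3.3; prior with a trend) was fitted to log2(normalized count + 1), two-sided, over genes with a mean of at least 1 (4886 genes lay below). Fold changes are on that scale and understate those of low genes. The fit was also run on simulated data with the same spread setting for every gene and no outlying heart. That check does not cover a heart like the third mimic heart. Alternatives were edgeR 4.0.16 and DESeq2 1.42.0 on recovered reads, TMM scaling, a pseudocount of 0.1, no filter or a minimum of 10, a replicate block, and each heart left out. Each library is from a separate heart, per the study's methods. Limits from 0 reads cover counting error only.

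The genes, the role and marker lists and the comparisons were chosen with earlier results of these data known. Named were all 10 genes and, of each role list, the 2 highest per length and those with an unadjusted p under 0.05, plus the 3 genes most alike in pattern to 1 gene per role. Gdf1, Inhbc, Inhbe, Cer1 and Hamp2 were not matched.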

Additional observations from a re-analysis of the deposited data

How the results depend on the processing

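No gene passed an adjusted p of 0.05 in limma and at an unadjusted p under 0.05 there were 555 lower and 293 higher; edgeR called 0. DESeq2 on the recovered reads called 29 genes, and leaving out 1 heart gave 0 to 547, the latter without the third miR-19a/19b mimic heart. Of the 10 Bmp and activin genes, 0 to 1 were called with 1 heart left out, the call being Inhba (log2 fold change -0.71 without the third mimic heart, range -0.85 to -0.59), and 0 in each fit of all 6 hearts. Of the wider pathway, 0 to 2 were called with 1 heart left out: without the third mimic heart, Gdf6 was lower and Hfe2 was higher.

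The count of wider pathway genes at an unadjusted p under 0.05 was 5 in limma, 3 with DESeq2, 4 with edgeR, 6 with no filter (3 lower, 3 higher), 3 with a replicate block and 2 to 12 with 1 heart left out, with 2 without the first control heart, 3 without the second and 12 without the third mimic heart, where 14.5% of all genes passed. Same-numbered hearts did not deviate together (correlations 0.01, -0.28 and -0.41), so the numbers were not taken to pair them. With the replicate block Inhba had a log2 fold change of -0.70 and an adjusted limma p of 0.9999.

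Some directions rested on 1 heart. The log2 fold change of Bmp2 (-0.05 to 0.14) was -0.0102 without the second control heart, -0.0173 without the third and -0.0496 without the third mimic heart. That of Bmp7 (-0.03 to 0.59) was -0.0251, and that of Fstl1 (-0.20 to 0.02) was 0.0152, without the second mimic heart. Without the third mimic heart Bmp4 was at -0.0085, Bmpr1a at -0.014 and Bmpr2 at -0.0051, and without the first Bmp6 was at 0.0052. Inhba was lower in every fit run. The cause of these differences was not tested. With 3 hearts a group the 95% interval ran from 0.747 to 1.12 times the control level for Bmpr1a. It ran from 0.790 to 1.11 for Bmpr2 and from 0.688 to 1.26 for Fstl1. Bmp10 and Grem1 were too thinly read to test.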
